A study of Caenorhabditis elegans with 4 samples.

Results

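The transcription factor JUN-1 of Caenorhabditis elegans belongs to the Jun family. ChIP-seq, which sequences the chromatin fragments that an antibody pulls down, was used to find where it sits on the genome. The regions described here are the broad JUN-1 peaks, those at least 800 bp wide in the authors' combined peak list. There were 563 of them among 3467 peaks (16.2%, 95% Wilson interval 15.0 to 17.5%), and the remaining 2904 peaks are called narrower. The members were chosen by width alone. The study held 2 ChIP samples, enriched with a goat antibody against GFP, and 2 input samples of total chromatin. The labels conflict on this: titles and source names call the 2 samples with peak lists ChIP, while their description field calls them input DNA and that of the input samples names the antibody. The titles were followed, and every value below rests on them. All 4 came from L3 (the third larval stage) hermaphrodites of strain OP234, grown at 20 °C. The strain has the genotype unc119(ed3) with the transgene wgIs234, which holds the jun-1 gene (T24H10.7) fused to the TY1, EGFP and FLAG tags and an unc119 rescue marker, and which was introduced by bombardment. Every sample therefore carried the transgene, and no strain without the tagged protein was part of the comparison. At the tagged gene itself, added copies of the DNA can contribute reads.

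The authors' 3 lists of PeakSeq calls, a combined one and 1 per ChIP replicate, use WormBase WS180 coordinates and give 1 q-value (a p-value corrected by the caller) per peak. Strength is given here as −log10 q, so that a larger value is a smaller q. No value of an input sample was used here, and the read depth behind each list is unknown. Of the broad peaks, 493 (87.6%) had the same start, end and q-value as a replicate 2 peak, against 89.1% of all combined peaks. The replicate 2 list therefore adds nothing separate. The replicate 1 list, with 918 peaks, is the only further measurement. Intervals are 95% intervals, cover counting error only and are not adjusted for the number of comparisons. Peaks of 1 list share a library and are not replicates, so differences carry an interval and no p-value. Nothing in the labels says whether the 2 ChIP samples came from separate cultures.

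Jun proteins are basic leucine zipper factors that bind DNA as dimers, together with Fos-type partners as the AP-1 complex, and are best known for switching genes on in response to stress, growth and developmental signals. A factor bound at a single site gives an enriched stretch about as long as the sheared chromatin fragments around it. A longer stretch can hold several sites or spread enrichment, and a caller that joins nearby stretches can report it as 1 peak. In the worm, ChIP-seq of many tagged factors has also shown regions that collect most of the factors tested, and such regions are not told apart from JUN-1 sites by 1 experiment. Chromosome arms of the worm autosomes are richer in repeats, and their centres are richer in conserved, widely expressed genes.

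The broad peaks made up 40.8% of all base pairs in combined peaks, 814 of 1996 kb. Their median width was 1084 bp (quartiles 907.5 and 1512.5 bp), against 386.5 bp for narrower peaks. By width, 223 were under 1000 bp and 108 measured 1000 to 1199 bp. Another 88 measured 1200 to 1499 bp and 72 measured 1500 to 1999 bp. A further 36 measured 2000 to 2999 bp and 36 were 3000 bp or wider. The rule cut through a continuous distribution. The 3 peaks just inside were each 800 bp wide with −log10 q of 36.6, 10.9 and 17.6, and the 3 just outside were 796, 798 and 799 bp wide with −log10 q of 11.6, 11.3 and 8.21. The 133 peaks up to 100 bp above the limit had a median −log10 q of 9.15, and the 130 peaks up to 100 bp below it had 9.01.

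Width and q come from the same call, so strength in the combined list is a description of these peaks and not a test. The median −log10 q was 13.6 (quartiles 7.78 and 24.2) for broad peaks and 5.93 (quartiles 4.41 and 8.90) for narrower peaks. All of the 20 strongest peaks of the whole list, 82 of the 100 strongest and 185 of the 300 strongest were broad. The median rose with width, to 9.37 at 800 to 999 bp, 16.2 at 1500 to 1999 bp, 27.1 at 2000 to 2999 bp and 52.0 at 3000 bp or more. Spearman's rho between width and −log10 q was 0.40 across the 563 broad peaks, whose range of widths the rule cuts, 0.46 across the narrower peaks and 0.55 across all 3467. Still, 53 broad peaks (9.41%) had a −log10 q under 5.

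**Figure D1:**
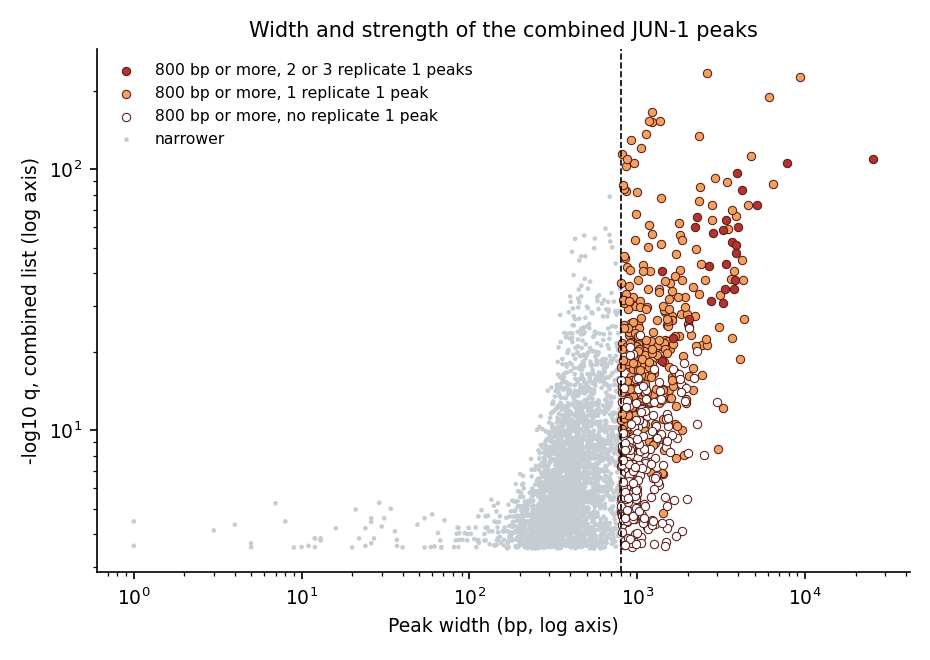
Width (bp, log axis) against −log10 q (log axis) for every peak of the combined list; the dashed line marks 800 bp, and the fill gives the number of replicate 1 peaks that overlap a broad peak. The 25 broad peaks with 2 or 3 replicate 1 peaks lie at widths of 1401 bp or more, and open circles (no replicate 1 peak) lie low on the axis of strength.

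The strongest broad peaks ran from compact to long. The strongest of all, at X from 16929326 to 16931948, was 2623 bp wide with a −log10 q of 234 in the combined list and 92.8 in replicate 1, and the X peak from 1502870 to 1505191 (2322 bp) had 134 and 54.7. Others were more compact. At X from 14525322 to 14526543 a peak of 1222 bp had a −log10 q of 165 in the combined list and 61.9 in replicate 1, and at X from 6296080 to 6296992 a peak of only 913 bp had 130 in the combined list and 69.7 in replicate 1. The X peaks from 11093441 to 11094611 (1171 bp) and from 8035853 to 8036975 (1123 bp) were of similar width, with 153 and 137 in the combined list and 63.3 and 56.7 in replicate 1. The longest of the 10 lay elsewhere. At V from 6220745 to 6230080 a stretch of 9336 bp had a −log10 q of 227 in the combined list and 99.5 in replicate 1, and at I from 7078766 to 7084835 a stretch of 6070 bp had 190 in the combined list and 44.5 in replicate 1. Of the 10 strongest broad peaks, 8 lay on X and their widths ran from 913 to 2623 bp. All 10 had a single replicate 1 peak. In the strongest of 10 equal groups of the combined list by q, replicate 1 overlapped 97.0% of broad and 97.9% of narrower peaks.

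At the other end, the 10 weakest broad peaks had −log10 q values of 3.56 to 3.75, and none had a replicate 1 peak. This was not particular to broad peaks. In the weakest of 10 equal groups of the combined list by q, 0 of 13 broad and 0 of 333 narrower peaks had one. They were not the narrowest members, as their widths ran from 829 to 1493 bp. The weakest of all spanned III from 9703632 to 9704568 (937 bp), and the widest of these 10 spanned IV from 13029326 to 13030818 (1493 bp, −log10 q 3.73). They lay on all 6 chromosomes.

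The next question was whether replicate 1, whose values did not enter the rule directly, also held peaks at the broad regions. Whether reads of replicate 1 entered the combined list is not given in the sources used here. A replicate 1 peak overlapped 327 of the 563 broad peaks by at least 1 bp (58.1%, interval 54.0 to 62.1%), against 564 of the 2904 narrower peaks (19.4%, interval 18 to 20.9%), where 25.7% of all combined peaks were overlapped. The difference was 38.7 percentage points (interval 34.3 to 42.9). Where a replicate 1 peak existed, its median −log10 q was 7.60 (interval 6.96 to 8.62) at broad peaks and 5.50 (interval 5.34 to 5.68) at narrower peaks. The share rose step by step with width. It was 44.8% at 800 to 999 bp, 54.6% at 1000 to 1199 bp, 60.2% at 1200 to 1499 bp, 69.4% at 1500 to 1999 bp and 80.6% at 2000 to 2999 bp. All 36 peaks of 3000 bp or more were overlapped (interval 90.4 to 100%).

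Among peaks of like strength the difference went both ways. When the combined list was cut by q into 10 equal groups, the strongest group held 202 broad and 145 narrower peaks, of which 97.0% and 97.9% were overlapped by replicate 1. In the next group 70.3% of 111 broad peaks (interval 61.2 to 78%) and 80.1% of 236 narrower peaks (interval 74.5 to 84.7%) were overlapped. In the group after it the shares were 46.0% and 45.1%, in group 4 they were 35.6% and 23.6%, and in group 5 they were 13.2% and 7.77%. In groups 6 and 7 none of the broad peaks and 2.20% and 0.938% of the narrower peaks were overlapped. Group 8 was the only group whose intervals lay apart, with 3 of 26 broad peaks (11.5%, interval 4 to 29.0%) and none of 321 narrower peaks (upper bound 1.18%). Averaged over the groups by their number of broad peaks, broad minus narrower was −0.45 percentage points (interval −3.73 to 2.82). This average rests mostly on the strongest groups and does not show that the shares are alike in each. Broad peaks with a −log10 q of 10 or more were overlapped in 296 of 354 cases (83.6%), and those under 10 in 31 of 209 cases (14.8%).

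**Figure D2:**
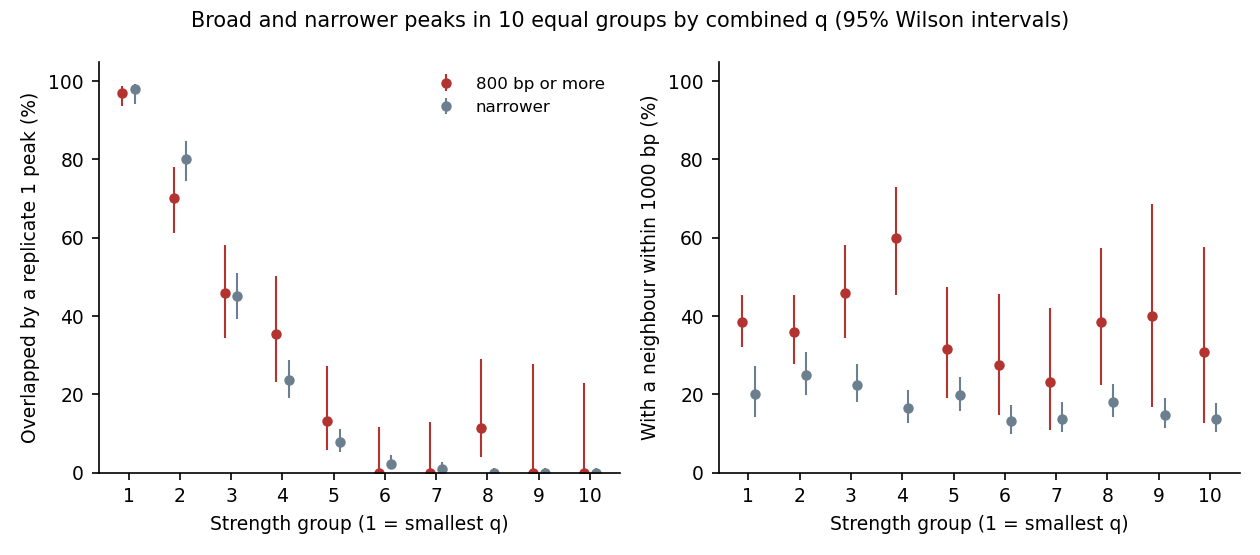
Share of peaks overlapped by a replicate 1 peak (left) and share with another combined peak within 1000 bp (right), in 10 equal groups of the combined list by q, for broad peaks (red) and narrower peaks (grey); points are shares and bars 95% Wilson intervals. On the left red and grey fall from 97.0% and 97.9% in group 1 to 0% in groups 9 and 10, with red lower in group 2 and higher in groups 4, 5 and 8, while on the right the red points lie above the grey in every group.

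Chromosome I stood low in this overlap. Replicate 1 overlapped 37 of 83 broad peaks there (44.6%, interval 34.4 to 55.3%), against 290 of 480 broad peaks on the other chromosomes (60.4%, interval 56.0 to 64.7%). This was not particular to broad peaks, as the narrower peaks had 66 of 608 overlapped on I (10.9%) and 498 of 2296 elsewhere (21.7%). The broad-minus-narrower difference was 33.7 points on I (interval 23.1 to 44.6) and 38.7 points elsewhere (interval 34.0 to 43.3). The shares of broad peaks elsewhere were 54.2% on II, 57.0% on V, 62.2% on IV, 62.9% on III and 63.6% on X. Among the 10 strongest broad peaks without a replicate 1 peak, 7 were on I. The strongest of the 10 spanned II from 8015311 to 8017345, with a width of 2035 bp and a −log10 q of 24.7, which put it at position 204 of the combined list. Those on I included the stretches from 10775773 to 10776817 (1045 bp, −log10 q 23.3), from 12042819 to 12044712 (1894 bp, 18.2) and from 12570868 to 12572653 (1786 bp, 16.5). On III, peaks from 8652103 to 8654359 (2257 bp, −log10 q 20.1) and from 5267180 to 5268803 (1624 bp, 17.2) also lacked a partner.

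Where replicate 1 overlapped a broad peak, it usually did so with 1 peak. Of the 563, 302 (53.6%) held 1 replicate 1 peak, 23 held 2, 2 held 3 and 236 held none. Thus 25 (4.44%, interval 3.03 to 6.47%) were split into several, against 0.721% of all combined peaks. No narrower peak was split, where a count of 0 among 2904 gives an upper Wilson bound of 0.132%. A split needs width, and the split peaks had a median width of 3383 bp (range 1401 to 25340 bp). No peak under 1200 bp was split, and 16 of the 36 peaks of 3000 bp or more were. The gaps between replicate 1 parts had a median of 400 bp, and 22 of the 27 gaps were 500 bp or shorter. No list held neighbouring peaks closer than 204 bp.

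The parts of a split peak varied in strength. At X from 6252058 to 6256064 a combined peak of 4007 bp (−log10 q 60.2) held 3 replicate 1 peaks, of 1367, 1016 and 590 bp, whose −log10 q values were 9.53, 7.75 and 9.06. At V from 13655126 to 13659009 a combined peak of 3884 bp (−log10 q 51.4) held 3 parts of 652, 841 and 1602 bp with −log10 q values of 4.16, 6.44 and 9.15. The parts were closer in strength in the X peak than in the V peak, where the weakest ranked 838 and the strongest 213 of the 918 replicate 1 peaks. Other splits were more uneven still. At II from 10541817 to 10549624 (7808 bp) the low part had a −log10 q of 27.2 and the high part 5.39, and 2763 bp between them had no replicate 1 peak. At IV from 291454 to 296637 (5184 bp) the parts had 20.8 and 6.23, and at III from 5501458 to 5505108 (3651 bp) they had 17.1 and 4.19.

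The widest peaks differed in how much of their length replicate 1 recovered. The 9336 bp stretch on V was covered over 96.4% of its length by 1 replicate 1 peak of 8999 bp, and the 4750 bp peak at V from 723687 to 728436 over 95.2% by 1 peak. The 25340 bp stretch at II from 9108479 to 9133818 was covered over 96.8% by 2 peaks, of 14556 and 9968 bp, although their −log10 q values were only 7.98 and 15.3. Whether that stretch covers the tagged gene was not analysed here. Other wide peaks had a short core in replicate 1. At IV from 17277493 to 17281694 (4202 bp) the replicate 1 peak was 911 bp long, 21.7% of the length, with a −log10 q of 16.9. At II from 6888134 to 6892217 (4084 bp) it covered 27.8% with a −log10 q of 6.19, at II from 10549879 to 10554154 (4276 bp) 34.1% with 12.4, and at II from 11149646 to 11154210 (4565 bp) 37.6% with 24.9.

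**Figure D3:**
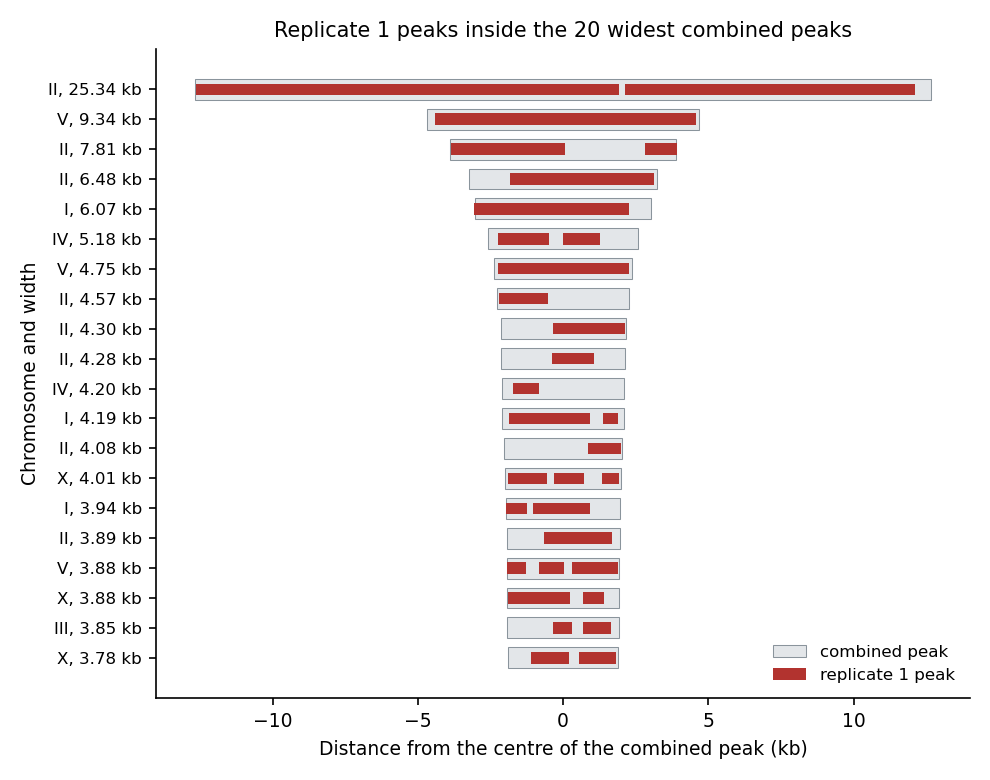
The 20 widest combined peaks, each drawn to scale from its centre (kb), with the combined peak in grey and the replicate 1 peaks inside it in red; labels give chromosome and width. The stretch on II of 25.34 kb is nearly filled by 2 red bars, several peaks near 4 kb hold 2 or 3 bars, and 4 peaks are filled over less than 40% of their length by a single bar.

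Over the 327 overlapped broad peaks, replicate 1 covered a median of 76.4% of the length (interval 72.6 to 79.7%, range 11.3 to 99.8%), against 83.5% (interval 82.3 to 84.6%) over the 564 overlapped narrower peaks. Where a broad peak held a single replicate 1 peak, that peak was a median of 833 bp wide, and 162 of these 302 were themselves 800 bp or wider. Their edges lay a median of 83 bp inside the low edge and 85.5 bp inside the high edge of the combined peak. A replicate 1 peak of at least 800 bp lay in 184 of the 563 broad peaks (32.7%), against 1 of 2904 narrower peaks, and 5.34% of all combined peaks held one. Conversely, 194 of the 195 broad peaks of the replicate 1 list fell on a combined broad peak. A replicate 1 peak that lies inside a combined peak cannot be wider than it, so these 2 comparisons follow largely from the width rule. The reverse was open, and fewer of the combined broad peaks held a broad replicate 1 peak. The median ratio of combined to replicate 1 −log10 q was 2.55 at broad peaks (interval 2.45 to 2.65) and 2.30 at narrower peaks (interval 2.24 to 2.37). These are ratios of q on unknown depths and not ratios of binding.

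By chromosome, the broad peaks were shifted towards X and away from I. X held 121 of the 563 broad peaks (21.5%, interval 18.3 to 25.1%) and 450 of the 2904 narrower peaks (15.5%, interval 14.2 to 16.9%), a difference of 6.00 percentage points (interval 2.52 to 9.80), where X makes up 17.5% of the span of the chromosomes. Chromosome I held 83 broad peaks (14.7%, interval 12.1 to 17.9%) and 608 narrower peaks (20.9%, interval 19.5 to 22.5%), a difference of −6.19 points (interval −9.28 to −2.71). For II, III, IV and V the intervals of the difference all included 0. Put the other way, 21.2% of the peaks on X were broad, against 12% of those on I. Per Mb of span, III had 7.05 broad peaks, X 6.92, I 5.55, IV 5.15, V 4.78 and II 4.72. Within the 10 groups of strength the difference was 6.27 points for X (interval 2.10 to 10.4) and −7.91 for I (interval −12 to −3.78).

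In the replicate 1 list X was again higher among broad peaks, and I was not lower. Of the 195 peaks of 800 bp or more in replicate 1, 58 were on X (29.7%, interval 23.8 to 36.5%), against 131 of its 723 narrower peaks (18.1%, interval 15.5 to 21.1%), a difference of 11.6 points (interval 4.95 to 18.9). On I it held 24 broad peaks (12.3%) and 83 narrower peaks (11.5%), a difference of 0.83 points (interval −3.82 to 6.59). In replicate 1, IV was lower among broad peaks (28 peaks, 14.4%) than among narrower peaks (161 peaks, 22.3%). That difference was −7.91 points (interval −13.2 to −1.60), and in the combined list the difference for IV was −2.75 points (interval −5.90 to 0.79).

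**Figure D4:**
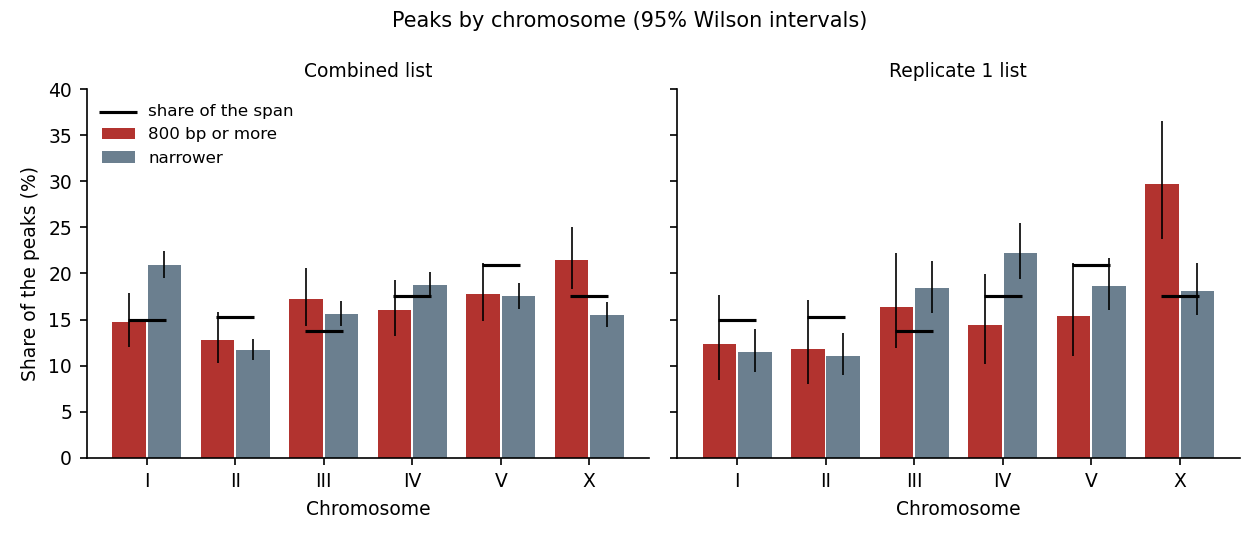
Share of the broad peaks (red) and of the narrower peaks (grey) on each chromosome, in the combined list (left) and the replicate 1 list (right); bars are shares with 95% Wilson intervals and black dashes the chromosome's share of the span. X is higher among broad peaks in both lists (21.5% against 15.5%, and 29.7% against 18.1%), and I is lower among broad peaks in the combined list alone.

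The X members were not stronger on the whole. Their median −log10 q was 12.4, against 16 on I, 14.2 on IV, 13.6 on III, 13.1 on II and 11.6 on V. X held 19 of the 54 broad peaks that had a −log10 q of 50 or more. It also held 15 of the 36 peaks of 2000 to 2999 bp, against 12 of 72 at 1500 to 1999 bp. At 3000 bp or more, II held 10 of 36, V 7, X 6, I 5, and III and IV 4 each. Median widths ran from 1009 bp on I to 1223 bp on V. Among broad peaks with a −log10 q under 10, X held 49 of 209 and V 46, and I held 21.

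Each chromosome was then cut into 3 equal parts. On the autosomes the middle part held 204 of 442 broad peaks (46.2%, interval 41.6 to 50.8%) and 1056 of 2454 narrower peaks (43.0%, interval 41.1 to 45.0%). The difference of 3.12 points had an interval of −1.88 to 8.17 and so did not exceed counting error. In the replicate 1 list it was 1.17 points (interval −7.87 to 10.4). On X the middle part held 33.9% of broad and 36.7% of narrower peaks. The share of middle peaks did not climb evenly with width, with 44.7% at 800 to 999 bp, 42.9% at 1200 to 1499 bp, 57.1% at 2000 to 2999 bp and 50.0% at 3000 bp or more.

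Single chromosomes departed from this. On II only 5 of 72 broad peaks (6.94%) lay in the low-numbered part, against 76 of 340 narrower peaks (22.4%), a difference of −15.4 points (interval −21.6 to −6.15). The replicate 1 list had 1 of 23 broad peaks (4.35%) there and 16 of 80 narrower peaks (20.0%). On III the middle part held 48 of 97 broad peaks (49.5%) and 158 of 453 narrower peaks (34.9%), a difference of 14.6 points (interval 3.88 to 25.3). In replicate 1 the order on III was the other way, with 12 of 32 broad peaks (37.5%) and 58 of 133 narrower peaks (43.6%). The low-numbered part of II and the middle part of III were picked after their values were seen, from 18 parts.

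**Figure D5:**
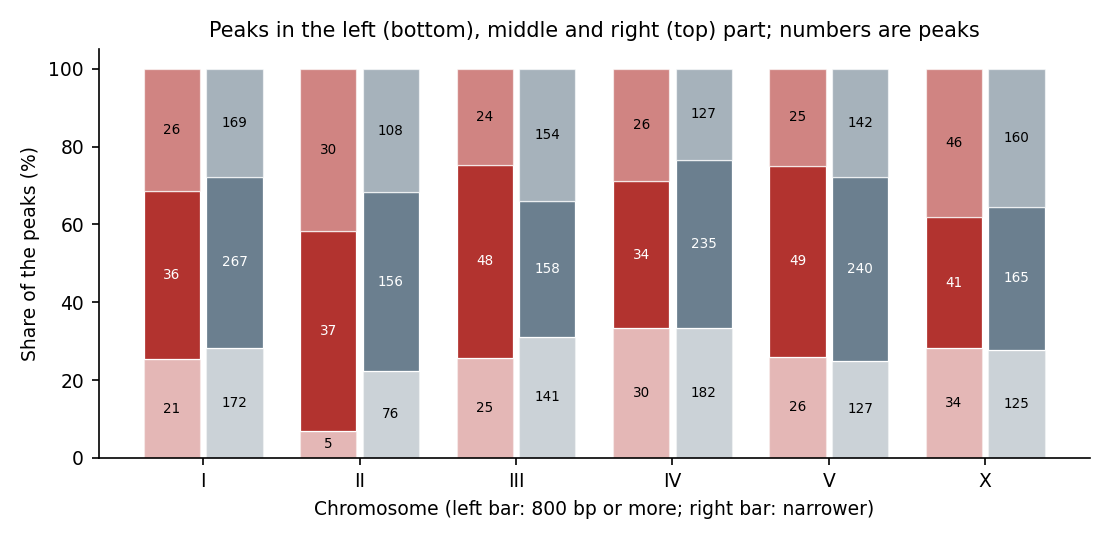
Share of peaks in the left (low-numbered), middle and right part of each chromosome, stacked from bottom to top, for broad peaks (red, left bar) and narrower peaks (grey, right bar); numbers are peaks. The low-numbered part of II holds 5 of 72 broad peaks and 76 of 340 narrower peaks, and on III the middle part holds 48 of 97 broad peaks and 158 of 453 narrower peaks.

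Broad peaks had closer neighbours. Another combined peak began or ended within 1000 bp of 218 of the 563 broad peaks (38.7%, interval 34.8 to 42.8%), against 503 of the 2904 narrower peaks (17.3%, interval 16 to 18.7%), where 20.8% of all combined peaks had one. The difference was 21.4 percentage points (interval 17.2 to 25.7). The median gap to the nearest peak was 1554 bp for broad peaks (interval 1297 to 1994 bp) and 5388 bp for narrower peaks (interval 5008 to 5878 bp). Unlike the overlap with replicate 1, this remained within the 10 groups of strength, where the average difference was 18.7 points (interval 13.9 to 23.5). The replicate 1 list had the same order, with 57 of 195 broad peaks (29.2%) and 68 of 723 narrower peaks (9.41%), a difference of 19.8 points (interval 13.4 to 26.8). Gaps were measured between edges. Between midpoints the median distance was 2820 bp for broad peaks and 5866 bp for narrower peaks, but the share with a neighbour within 1000 bp turned round, at 1.95% for broad and 6.40% for narrower peaks. Within 2000 bp of the midpoint it was 33.0% for broad and 23.9% for narrower peaks.

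Broad peaks were more often beside another broad peak than their share of the list. Of 400 pairs of adjacent peaks within 1000 bp, 54 joined 2 broad peaks, 139 a broad and a narrower peak and 207 narrower peaks alone. Narrower peaks were thus 139 of the 247 neighbours of broad peaks (56.3%) and 414 of the 553 neighbours of narrower peaks (74.9%), where 83.8% of all combined peaks were narrower. In 108 of the 139 mixed pairs the broad peak was the stronger, as the medians of the whole list also are. Replicate 1 overlapped the broad peak in 77 of these pairs (55.4%) and the narrower peak in 35 (25.2%). These shares were near those of the whole list, 58.1% of broad and 19.4% of narrower peaks. Having a neighbour went with little difference in overlap, as 56.9% of the broad peaks with one and 58.8% of those without one were overlapped by replicate 1. By chromosome, the share of broad peaks with a neighbour ran from 23.6% on II to 47.0% on I. The density of all combined peaks was also lowest on II, at 27.0 per Mb, and highest on I, at 46.2. The share among narrower peaks was not computed by chromosome, so this is not shown to be particular to broad peaks.

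Linking peaks across gaps of up to 1000 bp gave 159 groups of at least 2 peaks that held a broad peak, and 53 of these held at least 2 broad peaks. The groups named here were chosen after their values were seen. The longest spanned II from 10541817 to 10559992. It held 4 peaks, all broad, which covered 89.4% of 18.2 kb, and it included the third widest and the tenth widest peak of the list. Replicate 1 overlapped 3 of the 4. At IV from 4468090 to 4473204 another 4 adjacent peaks were all broad and covered 79.5% of 5.12 kb, and replicate 1 overlapped 2 of them. The group with the most peaks, 5, spanned V from 18572680 to 18578721, with 2 broad peaks and a highest −log10 q of 13.4.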

How the data were processed

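ChIP and input samples were grouped by their titles, which the source names match. The description field reads otherwise, as given in the report. The authors deposited PeakSeq peak lists on WormBase WS180, per the file headers and source column, each with a q-value per peak, and this q-value was the only value. How the combined list was made, like the aligner, the read depth and PeakSeq's version, settings and control, is not given in the sources used here. A deeper library gives smaller q and can give wider peaks.

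From the lists, widths (end minus start plus 1), overlaps of at least 1 bp, gaps between peak edges and positions by midpoint were computed. As span of a chromosome, all bases up to its highest peak end over the 3 lists were taken. Shares carry 95% Wilson intervals, differences Newcombe intervals, medians exact binomial intervals, and averages over 10 groups of strength normal intervals. The tools were pandas 2.3.3, NumPy 2.4.6, statsmodels 0.14.6, SciPy 1.17.1 and, for figures, matplotlib 3.10.9, under Python 3.11.15. In simulated data with the 3467 combined peaks, 400 of 400 planted overlaps were found, and a planted difference of 20 points came back as 19.8. The planted peaks lay inside chosen combined peaks, so this checked the code alone.

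Members, comparisons and the rule for named regions were chosen with earlier results of these data known. The rule names the 20 widest, 10 strongest and 10 weakest broad peaks, the 10 strongest without a replicate 1 peak, the 5 with most replicate 1 peaks and the 5 strongest narrower peaks. Genes and sequences at the peaks were not analysed here, since no genome of build WS180 was used.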

Additional observations from a re-analysis of the deposited data

How the results depend on the processing

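Results for broad peaks were recomputed under 22 alternatives. Merging over gaps of 500 bp and leaving out chromosome I, peaks under 200 bp or the widest peak were added after seeing the data. Of 169 values, 134 stayed within the interval of the main value, or within 1.5 times for the number of peaks. Merging over gaps of 200 bp changed nothing, as no gap was that short, and asking for 50% of the shorter peak changed no call of overlap. Leaving out only the widest peak, or using the nearly equal replicate 2 list, left little room for a move. The count of 134 therefore overstates how far the results were tried. The difference in overlap within groups of strength stayed within its interval in all 13 alternatives run for it.

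The width rule moved 19 of the 45 values recomputed under it. At 600, 1000 and 1500 bp there were 919, 340 and 144 peaks, with a median −log10 q of 10.8, 16.4 and 25.2. Replicate 1 then overlapped 51.6, 66.8 and 79.9%, covered 2.72, 7.35 and 16% with several peaks, and 33.0, 43.2 and 43.1% had a neighbour within 1000 bp. Its median −log10 q there was 6.74 at 600 bp and 10.1 at 1500 bp, where it covered a median of 68.1% of the length and where I held 11.1% of the peaks. At 600 bp the middle part of the autosomes held 43.0% of broad and 43.7% of narrower peaks, so the order turned, within counting error.

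With the stronger 50% of the replicate 1 list, 38.9% of broad peaks were overlapped and 2.49% split, and in the stronger 50% of the combined list 70.6% were overlapped. Merging over 500 bp gave 9.01% split, a covered median of 68.1% and 22.6% with a neighbour, against 11.3% of narrower peaks. A neighbour lay within 500 bp of 20.6% and within 5000 bp of 71.6%. Between midpoints 1.95% of broad and 6.40% of narrower peaks had a neighbour within 1000 bp, which turns the order, since half-widths of broad peaks and the smallest gap leave almost no room. The middle 50% of each autosome held 66.3%. By base pairs II held 17.3% of the broad total, and the single stretch of 25340 bp made up 25.3 of its 141 kb.

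Without the 12 stretches of 1 Mb where the combined and replicate 2 lists differ, 6 of them on X, X held 16.4% of broad and 10.6% of narrower peaks. Leaving out a replicate meant taking the list of the other replicate alone. No combined list was remade, and several of the replicate 1 values are those given above. Between the 2 replicate lists, the number of broad peaks ranged from 195 to 556 and their median −log10 q from 9.24 to 13.6. The share with a neighbour ranged from 29.2 to 39.2% and the share in the middle part from 45.3 to 46.8%. The share on X ranged from 21.6 to 29.7%. The shares on I ranged from 12.3 to 14.6%. The lower share of I among broad peaks was not seen in the replicate 1 list, as given above. The cause of these moves was not tested. Without replicate 1 there is no overlap to compute. No paired analysis was possible because only the ChIP arm has values, and an input partner of the same number has none here. Depth is unknown, so a broad peak without a replicate 1 peak is one not detected there.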

Other observations

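The narrower peaks also reached high strength. The 5 strongest of them spanned X from 806350 to 807035 (686 bp, −log10 q 78.7), III from 12612226 to 12612872 (647 bp, 59.4), X from 16681648 to 16682331 (684 bp, 56.1), IV from 3988611 to 3989093 (483 bp, 55.8) and X from 7181500 to 7182058 (559 bp, 54.4). Replicate 1 held 1 peak at each, with −log10 q of 33.5, 28.8, 25.4, 23.6 and 23.4, and covered 80.3 to 92.7% of their lengths. Broad peaks near this strength varied in width, and those given here were named after their values were seen. At III, from 4281579 and from 8801262, they measured 1224 and 1385 bp, with −log10 q of 56.7 and 51.7. At V from 13655126 one measured 3884 bp, with 51.4.

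Of the 53 broad peaks with a −log10 q under 5, 3 were overlapped by replicate 1, and they are named here after their values were seen. They spanned II from 6926075 to 6927234 (1160 bp), IV from 3160517 to 3161321 (805 bp) and V from 14365950 to 14367378 (1429 bp). Their −log10 q values in the combined list were 4.47, 4.86 and 4.84, and in replicate 1 they were 3.96, 4.01 and 4.06. All 3 fell in group 8 of 10 by q in the combined list, where 3 of 26 broad peaks (11.5%, Wilson interval 4 to 29.0%) and 0 of 321 narrower peaks (upper bound 1.18%) were overlapped.

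Of the stretches of 1 Mb, 102 held any peak, with a median of 5.5 broad peaks each. The number of all peaks per stretch itself ran from 9 to 77, and no test of evenness was made. The fullest lay between 5 and 6 Mb of III, with 15 broad peaks among 55. Between 14 and 15 Mb of X, 13 of 42 peaks were broad. There were 4 stretches without a broad peak, between 1 and 2 Mb of IV (36 peaks in all), 4 and 5 Mb of II (22), 15 and 16 Mb of IV (16) and 15 and 16 Mb of II (9).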
